A study of Homo sapiens with 4 samples.

Results

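The retained introns of U87MG cells, a human glioblastoma cell line, were examined after transfection with a decoy oligonucleotide against RBFOX proteins. All 1290 events of the retained intron table were taken, which is 1.06% of the 121269 splicing events deposited for the series. The intron of an event runs from the end of the upstream exon to the start of the downstream exon, and its length was the distance between them. By length, 357 introns had up to 150 nt, 509 had over 150 and up to 500 nt and 424 had over 500 nt, with a range of 21 to 9080 nt and a median of 293 nt. All 1290 introns were distinct, but 273 overlapped another member, and 194 of the 1032 genes had more than 1 event, so the introns are not independent of each other.

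Both groups were U87MG cells that received oligonucleotide at 2.5 µM with a lipofection reagent, and each group had 2 biological replicates. RBFOXi is a single-stranded, 2′-O-methyl modified RNA that carries repeats of the motif bound by RBFOX1 and RBFOX2, and SCRM is a scrambled control of the same kind. By its label, the RBFOXi oligonucleotide used for replicate 1 was joined to Cy5, a fluorescent dye, which no other label mentions. U87MG is 1 cell line, and its labels call its cell type likely glioblastoma.

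An intron is retained when the spliceosome leaves it in an otherwise processed transcript. In coding sequence a retained intron usually brings in a stop codon, and such transcripts are held in the nucleus or degraded by nonsense-mediated decay. An intron that keeps the reading frame can instead be translated as a stretch of the protein, and is then often called an exitron. Short introns, high GC content and weak splice sites are well-known features of introns that are often retained in mammals. RBFOX proteins bind UGCAUG in introns and are best known for changing the inclusion of cassette exons, depending on which side of the exon they bind.

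Retention is given as the proportion spliced in (PSI), from 0 for an intron removed from every transcript to 1 for an intron kept in every transcript. PSI was computed from the counts of reads on the intron and its boundaries and of reads across the spliced junction, each divided by the effective length of that form. The sources used here name only Illumina library kits and total RNA, so transcripts that keep an intron and transcripts not yet spliced cannot be told apart. The retained intron events held 1472843 and 1664456 counts with RBFOXi, and 1443242 and 1588435 with SCRM. SCRM replicate 1 had the fewest counts by a small margin, and an inclusion share of 64.4%, against 68.6% to 69.7% in the other libraries. There 119 introns had less than 1/3 of the counts of any other library, against 0 such introns in each of the other 3 libraries. In that library 123 measured introns had no skipping count, against 73 to 94. The skipped exon of ABI1 served as a check of the labels, with a PSI of 0.352 and 0.445 after RBFOXi against 0.766 and 0.779 after SCRM. Of the markers of the cell line, VIM, CD44, FN1, TNC, NES and EGFR had skipped exon events with counts in every library. In SCRM replicate 1 the largest event count was the lowest of the libraries for CD44, TNC, NES and EGFR. It was 48 for EGFR and 17378 for TNC, against 589 to 1097 and 60036 to 101713 in the other libraries. For VIM it was the highest, at 185009, and for FN1 it lay within the range of the others. SOX2, the glial genes GFAP, S100B and OLIG2, and markers of blood, epithelial and liver cells had no event, so their level is not measured in these tables.

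The sequences of 7 short introns show how different the members are, from introns that can be read through in frame to introns that cannot. They are written 5′ to 3′ on the strand of the gene (GRCh37, which is hg19), with the first and last 2 bases and, where the reading frame meets one, the first stop codon in capitals. These introns, apart from those of PRPF31 and PHB2, were chosen after their values were seen. All 7 lie in coding sequence.
FN1, chr2:216236739-216236831, minus strand: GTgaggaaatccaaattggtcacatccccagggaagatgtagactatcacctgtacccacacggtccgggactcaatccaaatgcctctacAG
CIZ1, chr9:130941184-130941351, minus strand: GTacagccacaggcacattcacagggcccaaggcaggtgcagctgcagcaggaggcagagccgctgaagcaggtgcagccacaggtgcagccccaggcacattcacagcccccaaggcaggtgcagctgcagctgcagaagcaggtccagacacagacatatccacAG
GREM1, chr15:33023006-33023128, plus strand: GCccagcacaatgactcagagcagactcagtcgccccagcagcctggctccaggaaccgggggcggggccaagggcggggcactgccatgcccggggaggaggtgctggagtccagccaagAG
MAGED2, chrX:54836242-54836355, plus strand: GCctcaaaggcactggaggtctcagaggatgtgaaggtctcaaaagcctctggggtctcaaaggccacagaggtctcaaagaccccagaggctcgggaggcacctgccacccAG
SART1, chr11:65733690-65733820, plus strand: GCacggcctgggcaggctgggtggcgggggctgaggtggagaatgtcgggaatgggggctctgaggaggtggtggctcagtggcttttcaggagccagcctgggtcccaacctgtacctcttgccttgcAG
PRPF31, chr19:54632561-54632646, plus strand: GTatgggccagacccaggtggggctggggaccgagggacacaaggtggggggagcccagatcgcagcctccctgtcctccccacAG
PHB2, chr12:7076943-7077054, minus strand: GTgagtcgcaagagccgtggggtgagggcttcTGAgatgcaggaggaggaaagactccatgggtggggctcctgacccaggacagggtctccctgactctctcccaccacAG

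The introns of FN1, CIZ1, GREM1 and MAGED2 hold no stop codon in the reading frame and have a length that is a multiple of 3, so a transcript that keeps them can be read through. FN1 encodes fibronectin, a matrix glycoprotein, and its PSI was 0.163 and 0.156 with RBFOXi and 0.167 and 0.159 with SCRM, on 25084 counts or more in each library. The CIZ1 intron, in a gene for a nuclear matrix protein of DNA replication, had a PSI of 0.768 and 0.726 with RBFOXi and of 0.801 and 0.713 with SCRM. The introns of GREM1, a secreted antagonist of bone morphogenetic proteins, and of MAGED2 start with GC, and their PSI was at least 0.990 in every library. Their donor scores, explained below, were -5.36 and -5.56. The spliced form of MAGED2 had 1 count in RBFOXi replicate 1 and 0 in every other library. The SART1 intron also starts with GC, but its PSI was 0.000981 to 0.00224, so nearly every read came from the spliced form. Retention was also low in PRPF31, a spliceosome component, at 0.0235 to 0.0310, and in PHB2, a mitochondrial prohibitin, at 0.0243 to 0.0360. The groups overlapped in 6 of these 7 introns, and in PHB2 both RBFOXi libraries lay above both SCRM libraries.

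To describe retention by intron length, introns with at least 5 counts in every library and a mean of at least 20 per library were called measured. This left 1136 of the 1290 introns, 292, 446 and 398 from the short to the long class. The median PSI of introns up to 150 nt was 0.297 and 0.310 in the RBFOXi libraries and 0.287 and 0.291 in the SCRM libraries. For introns of over 150 to 500 nt it was 0.311 and 0.319 with RBFOXi and 0.337 and 0.316 with SCRM, and for introns over 500 nt it was 0.457 and 0.419 with RBFOXi and 0.400 and 0.458 with SCRM. On these 1136 introns, the longest class had the highest median and the shortest class the lowest in each of the 4 libraries. Medians over the 4 libraries were 0.296 ± 0.0101, 0.321 ± 0.0115 and 0.434 ± 0.0288 (SD, n = 4), in order of length.

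**Figure D1:**
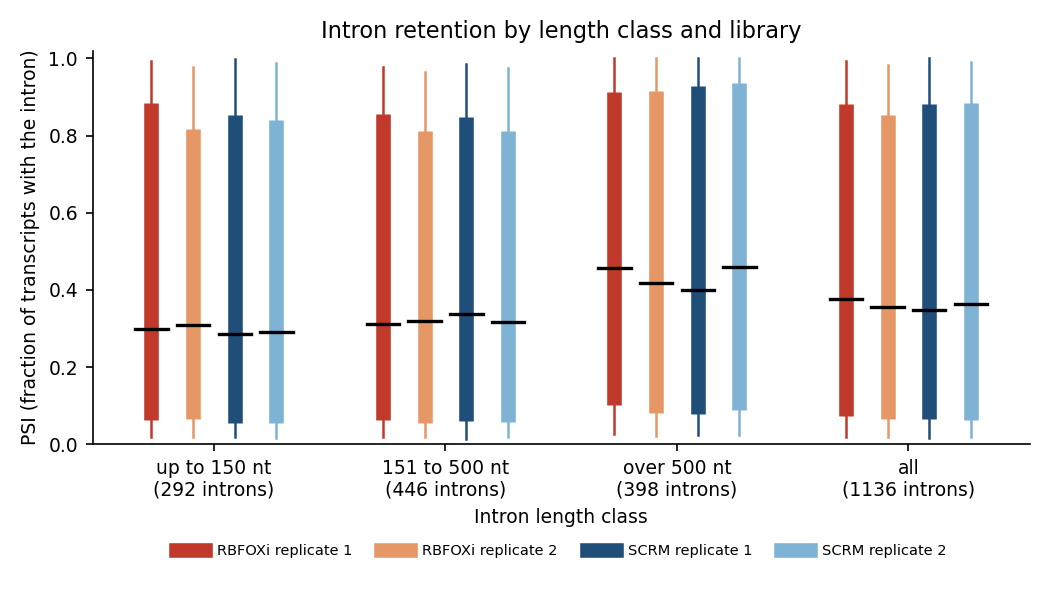
PSI of the measured introns in each length class and library. Thin lines span the middle 0.8 of the introns, thick bars the middle 0.5, and black ticks mark the median, which is highest for introns over 500 nt while every class spans nearly the whole range.

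Within each class the values lay mostly at the ends of the scale. By the mean of the SCRM libraries, 344 introns (30.3%) had a PSI under 0.1 and 253 (22.3%) a PSI of 0.9 or more. A PSI under 0.1 was found for 34.2% of introns up to 150 nt, 31.8% of those of over 150 to 500 nt and 25.6% of those over 500 nt. A PSI of 0.9 or more was found for 21.9%, 19.96% and 25.1% of them. Across all 1136 introns, length and the mean SCRM PSI had a Spearman rho of 0.0872 and a Pearson r of 0.113, values over introns that share libraries and genes. The class medians depend on what is compared: without the 107 measured introns that hold an exon of another event type, the median of the longest class was 0.385, 0.359, 0.332 and 0.379 in RBFOXi replicates 1 and 2 and SCRM replicates 1 and 2, and that of the middle class 0.283, 0.282, 0.302 and 0.288. The short class holds no such intron and stayed at 0.297, 0.310, 0.287 and 0.291. It then lay above the middle class in every library except SCRM replicate 1, so the order of these 2 classes is not stable. With the plain share of intron counts in place of PSI the medians over libraries became 0.496, 0.690 and 0.923, since a longer intron collects more reads.

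The place of the intron in its transcript went with larger differences in retention than its length did. GENCODE gene models matched 1072 of the measured introns. The 737 introns within coding sequence had a median PSI of 0.146 and 0.139 with RBFOXi and of 0.143 and 0.144 with SCRM. Introns in 5′ UTRs (157) were at 0.686, 0.659, 0.665 and 0.691, and those in 3′ UTRs (56) at 0.779, 0.753, 0.759 and 0.777, both in the order RBFOXi replicates 1 and 2, SCRM replicates 1 and 2. The remaining 122 matched introns, placed in neither coding sequence nor a UTR and grouped as non-coding transcript, had medians of 0.766 to 0.843. They include introns of CLK1, CCNL2 and HNRNPH3, so this group is not limited to genes without coding sequence. The 64 introns that no GENCODE transcript removes had medians of 0.984 to 0.995. Over all lengths together, the order from coding sequence to 5′ UTR to 3′ UTR was the same in all 4 libraries, and the SDs between replicates were at most 0.0195 in these 3 groups. The coding introns were lowest within each length class, with SCRM means of the medians of 0.121, 0.114 and 0.183 against 0.739, 0.576 and 0.844 for 5′ UTR introns and 0.409, 0.774 and 0.805 for 3′ UTR introns. The order of the UTRs differed between the classes, and the short class had only 5 measured introns in 3′ UTRs.

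**Figure D2:**
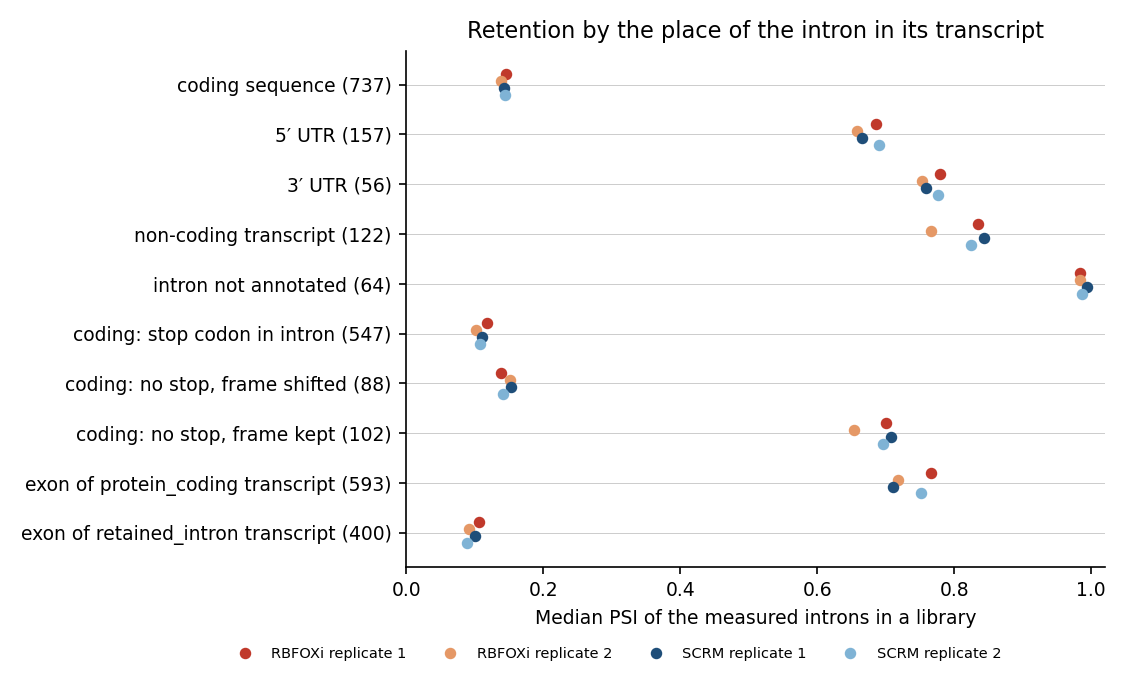
Median PSI of the measured introns in each library, by position of the intron, by what its reading frame meets, and by the kind of transcript that keeps it, with the number of introns in parentheses. Coding introns lie near 0.14 and those of UTRs between 0.659 and 0.779, and among coding introns those that keep the frame without a stop codon lie near 0.7.

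Among the coding introns, those that could be read through in frame were kept more often than those that end the reading frame. The 547 introns with a stop codon in frame had a median PSI of 0.118 and 0.101 with RBFOXi and of 0.111 and 0.108 with SCRM. The 88 introns without a stop codon that shift the frame were at 0.139, 0.151, 0.153 and 0.142. The 102 introns without a stop codon that keep the frame stood apart at 0.700, 0.653, 0.709 and 0.697. Of these 102, 36 (35.3%) had a SCRM PSI of 0.9 or more, against 64 (11.7%) of the introns with a stop codon. They were also short, with a median of 123 nt against 449 nt. Within the class up to 150 nt the same order held, with SCRM means of the medians of 0.562 for 58 introns that keep the frame, 0.0855 for 66 that shift it and 0.0743 for 77 with a stop codon. In the class of over 150 to 500 nt the means were 0.798 for 35 introns that keep the frame, 0.374 for 21 that shift it and 0.0804 for 219 with a stop codon, so the introns that shift the frame lay between the other groups there. How transcripts with a stop codon were degraded was not measured, so splicing and stability cannot be told apart in these values.

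Of the introns that keep the frame, 5 more are given as examples, which were chosen after their values were seen. The 348 nt intron of CSF1, a growth factor of macrophages, had a PSI of 0.997 and 0.995 with RBFOXi and 0.996 and 0.994 with SCRM. IGFBP3, which carries insulin-like growth factors, had 0.963, 0.948, 0.966 and 0.959 for its 291 nt intron, and RELA, the p65 subunit of NF-κB, had 0.965, 0.985, 0.972 and 0.985 for its 309 nt intron. Intermediate values were found for TGOLN2, a trans-Golgi membrane protein, at 0.672, 0.647, 0.640 and 0.683 (174 nt), and for SBSN at 0.398, 0.374, 0.334 and 0.404 (1029 nt). Each of these differed between the groups by less than the replicates of a group did.

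The kind of transcript that keeps the intron divided the values in a similar way. In 593 measured introns the retained form is an exon of an annotated protein_coding transcript, and their median PSI was 0.766 and 0.719 with RBFOXi and 0.711 and 0.751 with SCRM. In 400 introns the retained form is an exon of a transcript annotated as retained_intron and of none annotated as protein_coding, and their medians were 0.107, 0.0909, 0.0998 and 0.0893. The 107 introns that hold an exon of another event type had medians of 0.812 to 0.826, and reads from such an exon count as intron reads.

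The ends of the introns carried the weakest matches to the splice site consensus where retention was highest. The donor score is the log2 likelihood of 3 exon and 6 intron bases against a matrix made from annotated protein-coding introns. Its median was 7.28 for introns with a SCRM PSI under 0.1, 7.13 for those of 0.1 to 0.9 and 5.56 for those of 0.9 or more. The acceptor score, over 20 intron and 3 exon bases, fell in the same order from 8.11 to 7.78 and 6.63. Donor score and SCRM PSI had a Spearman rho of -0.298 over 292 introns up to 150 nt, -0.201 over 446 introns of over 150 to 500 nt and -0.133 over 398 introns over 500 nt. Pearson r was -0.345, -0.224 and -0.118, and the introns share genes, so these describe the members only. Mean counts and SCRM PSI had a rho of -0.106, 0.0361 and 0.2001 in the same classes.

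Nearly all members, 1252, began with GT and 38 began with GC, which pairs less well with the U1 snRNA. They are called GT-AG and GC-AG introns here by the donor alone, whereas annotated introns were sorted by both ends. The 36 measured GC-AG introns had a median PSI of 0.920 and 0.903 with RBFOXi and of 0.880 and 0.930 with SCRM, against 0.350, 0.329, 0.319 and 0.334 for GT-AG introns. The GC-AG introns scored low at both ends, with a median donor score of 1.18 and acceptor score of 3.31, against 7.03 and 7.72. A cause of their high PSI was not tested. The groups of introns lay apart up to 500 nt, with SCRM means of the medians of 0.940 and 0.971 for GC-AG against 0.252 and 0.298 for GT-AG introns in the short and middle class. Over 500 nt the 8 GC-AG introns were at 0.482, 0.425, 0.533 and 0.480, close to the 0.457, 0.419, 0.391 and 0.458 of GT-AG introns. A GC donor was found in 2.95% of the members, and GC-AG ends in 1.30% of 253251 annotated introns of protein-coding transcripts. In 16 members (1.24%), 8 or more bases were repeated at both ends, so that the position of the intron is not unique, against 0.327% of the annotated introns. The 10 of these that were measured had medians of 0.969 to 0.974, and CIZ1, MAGED2 and IGFBP3, with 8, 8 and 9 repeated bases, are among them.

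A donor that begins with GTATCCTT is the mark of introns removed by the minor spliceosome, and 5 members had it. Their first 20 bases are shown with that stretch in capitals.
ZDHHC5, chr11:57457676-57457695, plus strand: GTATCCTTcaaggcctttta
UBXN4, chr2:136511138-136511157, plus strand: GTATCCTTtcagtaaagaat
C3orf17, chr3:112732099-112732118, minus strand: GTATCCTTgaatatcttgaa
ENTHD2, chr17:79211167-79211186, minus strand: GTATCCTTccttgatgtccc
CCPG1, chr15:55653018-55653037, minus strand: GTATCCTTggagaaggaaga
PSI was low in most of them. The PSI of ZDHHC5 was 0.0249 and 0.0233 with RBFOXi and 0.0203 and 0.0250 with SCRM, and that of UBXN4 0.0445, 0.0303, 0.0442 and 0.0357. C3orf17 was at 0.0466, 0.0186, 0.00308 and 0.0264, with 91 counts in SCRM replicate 1. ENTHD2 was higher at 0.124, 0.0686, 0.111 and 0.0908, and CCPG1 stood at the other end with at least 0.997 in every library. The CCPG1 intron keeps the reading frame without a stop codon, and the others hold one.

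Against annotated introns of the same length class, the members had a higher GC content and weaker donor sites. The median GC content was 63.1%, 57.9% and 49.7% from the short to the long class, against 59.5%, 55.0% and 42.5% of the annotated introns. Among the measured members, however, GC content and SCRM PSI had a Spearman rho of -0.230, 0.0814 and 0.0475 in these classes. Median donor scores were 6.53, 7.09 and 7.14, against 7.97, 7.87 and 8.21. TGCATG, the DNA form of the RBFOX motif, was searched on the strand of the gene, and it was present in 2, 32 and 149 members of the classes (0.560%, 6.29% and 35.1%). In annotated introns of the classes it was present in 2.32%, 8.36% and 58.4%. The lengths are not equal within a class: introns over 500 nt had a median of 966.5 nt among the members and of 2876 nt in the annotation.

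**Figure D3:**
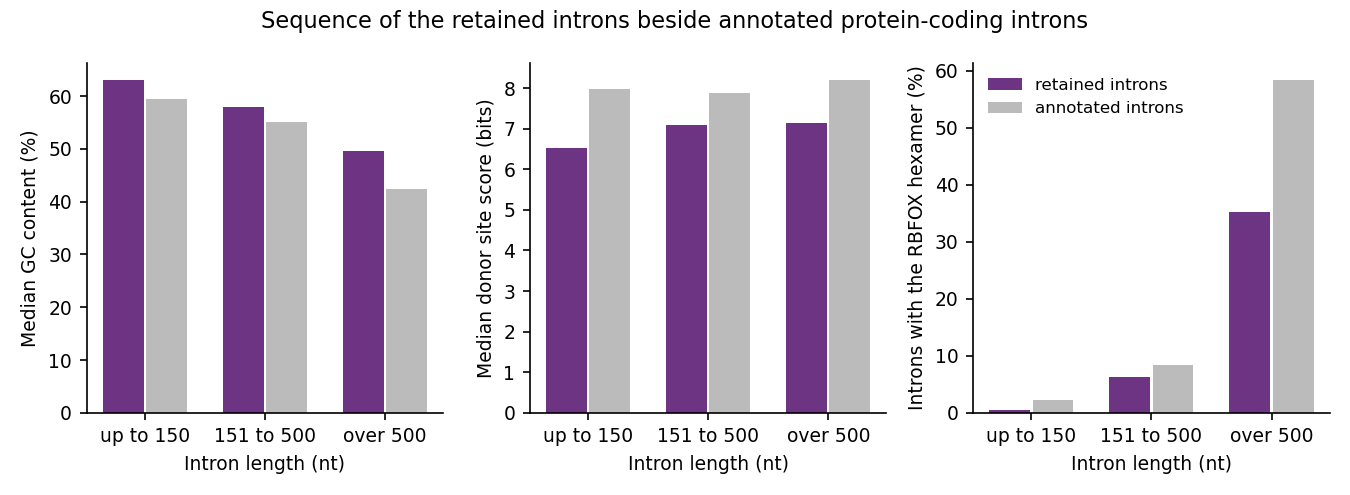
Median GC content, median donor site score and share of introns with the RBFOX hexamer for all 1290 members (purple) and annotated introns of protein-coding transcripts (grey), by length class. GC content is higher and donor score lower for the members in each class, and the hexamer is less frequent, at 35.1% against 58.4% in the longest class.

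Whether inhibition of RBFOX changed retention was asked of 1034 introns that also had at least 4 counts of each form, summed over libraries. The log2 odds of retention were compared with limma, and an intron was called changed at a Benjamini-Hochberg adjusted p under 0.05 with a PSI difference of at least 0.1. Called introns numbered 0 (0%), with a smallest adjusted p of 0.99995. An unadjusted p under 0.05 was found for 18 introns (1.74%), 10 higher (0.967%) and 8 lower (0.774%) with RBFOXi, and a quasi-binomial F test likewise gave 0 calls at an adjusted p under 0.05 and 23 introns at an unadjusted p under 0.05. By class, 4 of 268, 3 of 422 and 11 of 344 tested introns, from short to long, had an unadjusted p under 0.05. Both RBFOXi libraries lay above both SCRM libraries in 158 introns (15.3%) and below them in 131 (12.7%), which is 27.9% without overlap. With 2 libraries in a group the median SE was 0.535 on the log2 odds scale. A difference of several SEs was not called either, as in the 759 nt intron of NFATC4 (log2 odds 1.49 ± 0.36, SE). The 0 calls therefore cannot exclude changes well above the size of the SE. The 1.74% with an unadjusted p under 0.05 lies below the share of 0.05 that well-calibrated p-values would give if no intron changed. The test may thus be too cautious on these data, and this share cannot show that no intron changed.

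**Figure D4:**
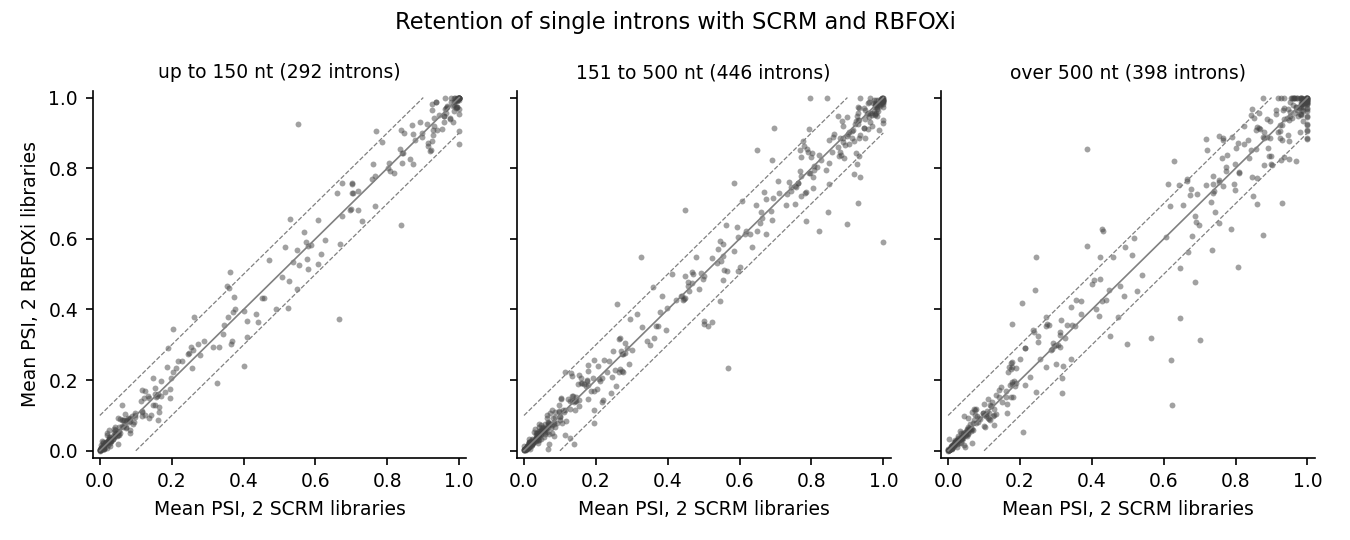
Mean PSI of the 2 RBFOXi libraries against that of the 2 SCRM libraries for each measured intron, by length class. The solid line marks equal PSI and the dashed lines a difference of 0.1, and 15, 32 and 50 introns have a difference of 0.1 or more from the short to the long class.

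The class medians of the groups lay close together. RBFOXi minus SCRM, the difference of the mean medians was 0.0147 for introns up to 150 nt (0.304 ± 0.00900 against 0.289 ± 0.00318, SD, n = 2 each; exact permutation test, two-sided, p = 0.333). It was -0.0114 for introns of over 150 to 500 nt (0.315 ± 0.00602 against 0.327 ± 0.0153; exact permutation p = 0.667). For introns over 500 nt it was 0.00871 (0.438 ± 0.0266 against 0.429 ± 0.0413; exact permutation p = 1). Over all 1136 introns the difference was 0.0108, with an exact permutation p of 0.667, and 2 libraries against 2 cannot give a p below 0.333. The short class was the only one of these in which both RBFOXi medians lay above both SCRM medians. Without SCRM replicate 1 the count minimum, applied to the other 3 libraries, kept 298 introns of this class in place of 292, and on those the difference was -0.00522, while on the 292 introns the RBFOXi mean of 0.304 stayed above the 0.291 of SCRM replicate 2. In single introns, the median absolute difference between the groups was 0.0162, and that between replicates was 0.0265 for RBFOXi and 0.0255 for SCRM.

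Introns over 500 nt varied most. A difference between the groups of at least 0.1 was found for 5.14%, 7.17% and 12.6% of measured introns from the short to the long class. The 95th percentile of the difference between the SCRM replicates was 0.177, 0.175 and 0.313 in the same order, and that between the RBFOXi replicates was 0.176, 0.174 and 0.238, so differences between replicates were also widest in the long class.

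Introns with TGCATG were described by their counts. Of the 161 tested introns that hold it, 103 had a higher mean PSI with RBFOXi and 58 a lower one, with a median difference of 0.00402. Without RBFOXi replicate 1 or without SCRM replicate 1, 82 of the 161 were higher, with medians of 0.000170 and 8.34e-05, so the excess rests on those libraries. Of the 873 tested introns without it, 446 were higher and 427 lower, with a median of 0.000217. Without RBFOXi replicate 1 or without SCRM replicate 1, 403 and 453 of the 873 were higher. An unadjusted p under 0.05 was found for 8 of the 161 and 10 of the 873, and an adjusted p under 0.05 for 0 of either. In the class of over 150 to 500 nt, 21 of 25 introns with the motif were higher, and leaving out 1 library at a time left 16 to 18 of 25. Of the 397 without the motif, 193 were higher, and 180 to 224 with 1 library left out. In the class over 500 nt, 80 of 134 with the motif were higher with all libraries, 62 without RBFOXi replicate 1 and 64 without SCRM replicate 1. Of the 210 without the motif, 109, 86 and 93 were higher in the same settings.

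In the class of over 150 to 500 nt, introns with the motif were also rarely retained, in both groups of cells. Their median PSI was 0.0896 and 0.0627 with RBFOXi and 0.0476 and 0.0550 with SCRM over 26 introns. The 420 introns without it were at 0.343, 0.329, 0.374 and 0.331. Of the 26, 21 (80.8%) lay in coding sequence, against 60.5% of the others, and among coding introns alone the median SCRM PSI was 0.0268 with the motif and 0.128 without it. Over 500 nt, the medians were 0.374, 0.368, 0.353 and 0.399 for 146 introns with the motif and 0.494, 0.455, 0.433 and 0.482 for 252 without it. Among coding introns of that class alone, the median SCRM PSI was 0.188 with the motif and 0.186 without it.

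The smallest p of all tested introns belonged to NFATC4, which encodes a transcription factor regulated by calcineurin, and 2 overlapping introns of it moved in opposite directions. The donor sites of these introns, with 10 exon and 20 intron bases and the first 2 intron bases in capitals, and the TGCATG sites in the shorter intron, with the motif in capitals, are as follows.
NFATC4 759 nt donor, chr14:24846075-24846104, plus strand: ctggaggaagGTgggtgtgggactgggggc
NFATC4 1083 nt donor, chr14:24845751-24845780, plus strand: ggtaccacagGTtgtgcccaaccacctgca
NFATC4 first TGCATG site, chr14:24846126-24846151, plus strand: gagattgctcTGCATGtttgctgagg
NFATC4 second TGCATG site, chr14:24846264-24846289, plus strand: ttctgaagagTGCATGgggtaactgt
Both introns end at the same acceptor, at base 24846843 of chromosome 14, and start at 24846085 and 24845761. Both are the last intron of coding transcripts and hold a stop codon in frame, and both motif copies lie in both introns, at positions 52 and 190 of the shorter one. The donor of the 759 nt intron scored 9.43 and that of the 1083 nt intron 1.54.

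The 759 nt intron of NFATC4 had a PSI of 0.462 and 0.377 with RBFOXi and of 0.228 and 0.180 with SCRM. The groups did not overlap, and the difference was 0.215 (log2 odds 1.49 ± 0.36, SE; limma, adjusted p = 0.99995). The 1083 nt intron had 0.802 and 0.603 with RBFOXi and 0.938 and 0.923 with SCRM, a difference of -0.228 (limma, adjusted p = 0.99995), on 2 to 31 counts of the spliced form. Reads on the shared 759 nt count for both introns, so these are not separate measurements of retention. Another intron of the gene, 458 nt long, was at 0.172 and 0.105 with RBFOXi and 0.233 and 0.203 with SCRM. The 2 long introns of NFATC4 have TGCATG and the other does not.

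The next smallest p-values were those of MED23, a Mediator subunit, and of DNAJB2, a co-chaperone of HSP70. The 771 nt intron of MED23 (chr6:131908078-131908848), the last of its coding transcript, had a PSI of 0.940 and 0.948 with RBFOXi and of 1 in both SCRM libraries, where the spliced form had 0 counts against 4 in each RBFOXi library (limma, adjusted p = 0.99995). The 1151 nt intron of DNAJB2 (chr2:220149558-220150708), also the last, had 0.364 and 0.243 with RBFOXi and 0.461 and 0.533 with SCRM, a difference of -0.194 (limma, adjusted p = 0.99995), on 166 to 486 counts of the spliced form. DNAJB2 has 1 TGCATG, which starts at base 1077 of the intron and is shown with 10 bases on each side.
DNAJB2 TGCATG site, chr2:220150624-220150649, plus strand: agcccaggtcTGCATGctgagcccca

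**Figure D5:**
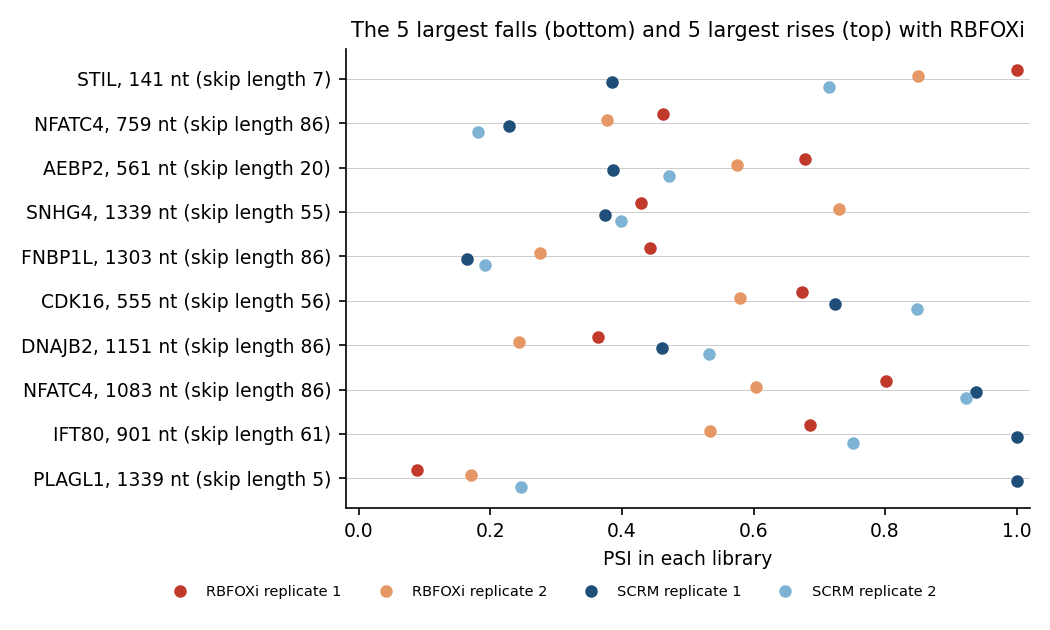
PSI in each library for the introns with the 5 largest falls and the 5 largest rises among introns with non-overlapping groups and a mean of at least 100 counts, with the effective length of the skipping form in parentheses. In PLAGL1 and IFT80 SCRM replicate 1 lies at 1, far from SCRM replicate 2.

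Among introns with a mean of at least 100 counts whose groups did not overlap, the 5 largest falls were in PLAGL1, IFT80, NFATC4 (1083 nt), DNAJB2 and CDK16. PLAGL1, a zinc finger transcription factor, has its 1339 nt intron in the 5′ UTR (chr6:144285956-144287294) and was at 0.0887 and 0.170 with RBFOXi and at 1 and 0.247 with SCRM. Its spliced form had 0 counts in SCRM replicate 1 and an effective length of 5, and without that library the difference fell from -0.494 to -0.117. IFT80, a component of intraflagellar transport (901 nt in the 5′ UTR, chr3:160101293-160102193), was at 0.686 and 0.534 with RBFOXi and at 1 and 0.752 with SCRM, again with 0 spliced counts in SCRM replicate 1, and without it the difference was -0.142. CDK16, a cyclin-dependent kinase (555 nt, chrX:47085427-47085981), was at 0.674 and 0.580 with RBFOXi and at 0.724 and 0.849 with SCRM. None of these 5 passed the test after adjustment. The introns of PLAGL1 and CDK16 hold an exon of another event type, whose reads count as intron reads.

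The 5 largest rises were in STIL, NFATC4 (759 nt), AEBP2, SNHG4 and FNBP1L. STIL, a centriole protein (141 nt in coding sequence, chr1:47765641-47765781), was at 1 and 0.849 with RBFOXi and at 0.385 and 0.715 with SCRM, on 0 to 4 spliced counts per library and an effective length of 7. AEBP2, an accessory subunit of a Polycomb repressive complex (561 nt in coding sequence, chr12:19671048-19671608), was at 0.679 and 0.575 with RBFOXi and at 0.386 and 0.472 with SCRM. SNHG4, a host gene of small nucleolar RNA whose 1339 nt intron is annotated in MATR3 (chr5:138650426-138651764), was at 0.428 and 0.730 against 0.374 and 0.398. The SNHG4 intron holds an exon of another event type. FNBP1L, a regulator of actin at membranes (1303 nt, the last intron of its coding transcript, chr1:94016663-94017965), was at 0.443 and 0.275 against 0.164 and 0.192, a difference of 0.181 (limma, adjusted p = 0.99995), with 58 counts in SCRM replicate 1. In FNBP1L both RBFOXi libraries lie above both SCRM libraries, but the replicates of RBFOXi differ by nearly as much as the groups do.

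Testing leaves out introns with fewer than 4 spliced counts over the libraries, such as those of MAGED2 and CCPG1. Among tested introns with a mean of at least 100 counts, the 3 with the highest SCRM PSI in each class had values near 1. In the class up to 150 nt these were MRFAP1, SLC25A44 and MRPL4, in the class of over 150 to 500 nt PLEKHG5, NFKBIZ and PABPC1, and in the class over 500 nt MICAL2, MED23 and SON. Their mean SCRM PSI was lowest in MRPL4, a mitochondrial ribosomal protein, at 0.994. MICAL2, an actin-oxidising enzyme, had a PSI of 0.998 in both RBFOXi libraries and of 1 in both SCRM libraries, with 36585 to 75467 intron counts. The MICAL2 intron holds an exon of another event type, whose reads count as intron reads. PABPC1, the cytoplasmic poly(A)-binding protein, had 0.999 in both RBFOXi libraries and 1 and 0.99971 in the SCRM libraries, for an intron in its 5′ UTR. SON, a nuclear speckle protein, was at 0.996 and 0.998 with RBFOXi and 1 and 0.997 with SCRM. The introns of MRFAP1, SLC25A44, MICAL2 and SON are not removed in any GENCODE transcript. In all 9, the spliced form had at most 10 counts in any library.

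Genes of the splicing machinery and of other groups with well-known retained introns were read from lists. Among SR proteins, TRA2 proteins and CLK kinases, which control splice site choice, 5 of 23 genes had an event and all 7 introns were tested. None passed the test, both RBFOXi libraries lay above both SCRM libraries in 1 and below in 0 (15.3% and 12.7% over all tested introns), and the median difference was 0.0211 beside 0.000908 over all tested introns. CLK1, whose retained introns are spliced on demand, was at 0.686 and 0.219 with RBFOXi and 0.648 and 0.402 with SCRM, so the replicates differed more than the groups. SRSF2 was at 0.109 and 0.0959 against 0.0595 and 0.0884, SRSF1 at 0.0542 and 0.0390 against 0.0989 and 0.0416, and SRSF5 at 0.979 or more in every library. The introns of CLK1, SRSF2 and SRSF5 hold an exon of another event type, and that of SRSF5 is not removed in any GENCODE transcript.

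Among hnRNP, RBM and other RNA-binding regulators, 7 of 64 genes had 11 introns, of which 10 were tested and 0 passed, with a median difference of 0.000135. HNRNPH1 was at 0.0760 and 0.0330 with RBFOXi and 0.0142 and 0.0393 with SCRM, HNRNPH3 at 0.350 and 0.237 against 0.272 and 0.351, and RBM39 at 0.0389 and 0.0234 against 0.0234 and 0.0263. QKI, for a 6974 nt intron that holds an exon of another event type, was at 0.855 and 0.800 against 1 and 0.895. The introns of HNRNPH3 and RBM39 also hold such an exon. No gene of the RBFOX family had an event. Among spliceosome components, 6 of 69 genes had 7 tested introns, with 0 passing and a median difference of 0.0104. SF3B1 was at 0.920 and 0.723 with RBFOXi and at 0.360 and 0.899 with SCRM, and SCRM replicate 1 had 81 intron counts against 798 to 1280 in the other libraries. LUC7L3 was at 0.396 and 0.184 against 0.167 and 0.261, and DDX41 at 0.0787 and 0.0473 against 0.0614 and 0.0525.

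Most introns of cytosolic ribosomal protein genes were rarely kept. Of 82 genes, 7 had 9 introns, all tested, with median PSI values of 0.0137 and 0.0114 in the RBFOXi libraries and 0.0101 and 0.0105 in the SCRM libraries. The 194 nt intron of RPL28 was at 0.00408 to 0.00608, but its 3505 nt intron had a mean SCRM PSI of 0.494, which was the highest of the 9. RPL37A was at 0.00164 to 0.00325, while RPS9 was at 0.0167 and 0.0136 with RBFOXi and 0.0116 and 0.0105 with SCRM, and RPL10A at 0.0183 and 0.0309 against 0.0159 and 0.0170. The RPS9 intron holds an exon of another event type. Both RBFOXi libraries lay above both SCRM libraries in 4 of the 9 and below in 0, against 15.3% and 12.7% of all tested introns, with a median difference of 0.00107, and 0 passed the test. Host genes of small nucleolar RNAs had 13 introns in 9 of 57 genes. Of the 12 tested, 4 lay above and 1 below (15.3% and 12.7% over all tested introns), 0 passed, and the median difference was 0.00653. EEF1B2 was at 0.696 and 0.734 with RBFOXi and 0.672 and 0.715 with SCRM, and SLC25A3 at 0.0246 and 0.0433 against 0.0325 and 0.0351. SNHG8 was at 0.516 and 0.580 with RBFOXi and 0.470 and 0.486 with SCRM. Genes with long-known retained introns had 19 introns in 9 of 30 genes, of which 18 were tested and 0 passed, with a median difference of 0.00653. ATF4, a stress-response transcription factor, was at 0.0487 and 0.0208 with RBFOXi and 0.0336 and 0.0468 with SCRM. CCNL2 was at 0.775 and 1 against 0.810 and 0.940, on 0 to 5 spliced counts and an effective length of 7.

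Introns of the same gene could differ widely. In 171 genes with more than 1 measured intron, the range of SCRM PSI within a gene had a median of 0.283, and it was 0.5 or more in 51 genes. NFATC4 had mean SCRM values of 0.218, 0.930 and 0.204, but the introns at 0.930 and 0.204 overlap and share reads. Their difference is therefore not one between separate introns, and 273 of the 1290 members overlap another member.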

How the data were processed

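Reads of 100 nt from each end were aligned uniquely to hg19 with STAR 2.4.2a by the authors, who then counted them per event with rMATS on UCSC known genes. From the deposited tables, the raw counts of inclusion and skipping reads were used, 2 libraries to a cell, together with both effective lengths. Whether counting used strand is not given in the sources used here, and 89 of the measured introns overlap an exon on the opposite strand. The authors' per-event p-value, FDR and inclusion level difference were not used, nor were 22 columns of per-library values over the 5 tables, which hold the authors' inclusion levels and the counts of 3 event types (alternative 5′ and 3′ splice sites and mutually exclusive exons). Counts of skipped exons were used only to check the labels and the cell line.

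PSI was inclusion counts over their effective length divided by the sum of both forms. The effective length of the skipping form was 86 in 780 introns and smaller in the other 510, where short flanking exons leave fewer positions, so that few skipping counts then weigh heavily. For the test, limma 3.58.1 (R 4.3.3) was fitted to the log2 odds with a pseudocount of 0.5, condition as the only term and a variance trend on the information of each intron, over all 1034 tested introns. Length class medians were compared with an exact permutation test over libraries. A value printed as ± is an SD between libraries unless named otherwise, and intervals for counting error were not used, since reads are not independent molecules.

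Introns were read from the GRCh37 genome with GENCODE 44 gene models lifted to it, using Python 3.11.15 with pysam 0.24.0. Motifs were searched on the strand of the gene only. The introns named were, per length class, the 3 with the highest SCRM PSI, the 5 largest rises and 5 largest falls with non-overlapping groups, the 3 smallest p-values, and up to 4 introns per gene list with the most counts, 1 per gene. The first 2 of these rules took tested introns with a mean of at least 100 counts. Other introns (FN1, CIZ1, GREM1, MAGED2, SART1, CSF1, IGFBP3, RELA, TGOLN2, SBSN, the 458 nt intron of NFATC4 and those with a minor spliceosome donor) were named after their values were seen. The members and the lists were chosen with earlier results of these data known.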

Additional observations from a re-analysis of the deposited data

How the results depend on the processing

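With all libraries, a quasi-binomial F test, pseudocounts of 0.1 and 1, centred log2 odds and count minimums of 1 and 20 gave 0 calls. The number of called introns was also 0 with only introns of full skipping length, and without introns that hold an exon of another event type. PSI minimums of 0.05 and 0.2 and the plain share kept the p-values of the main fit, so they could not add a call. All introns are distinct, so taking 1 event per distinct intron left the same set. Introns at an unadjusted p under 0.05 numbered 8 to 23 in these settings. A count model in edgeR was planned and was not run. Blocked on the replicate number, limma called 0 introns, and 26 had an unadjusted p under 0.05. The deviations of libraries with the same number had a correlation of 0.118, which 2 pairs cannot settle. The sample titles share a letter code between libraries of the same number (D_R for replicate 1, P for replicate 2), and the labels do not say what the codes mean.

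The difference in median PSI reversed for introns up to 150 nt without SCRM replicate 1, where 298 introns were measured in place of 292 (range -0.00522 to 0.0211 over left-out libraries), for introns of over 150 to 500 nt and for all introns with only the full skipping length, a setting added after seeing the data (0.0177 and -0.00573), and for introns over 500 nt with at least 20 counts in every library (-0.0140) and without RBFOXi replicate 1 (-0.0116) or SCRM replicate 1 (-0.0188, range -0.0188 to 0.0343). The ranges were -0.0181 to -0.000345 for introns of over 150 to 500 nt and 0.000973 to 0.0213 for all introns. Blocked on the replicate number, the mean differences of 0.0147, -0.0114, 0.00871 and 0.0108 (the 3 classes, then all introns) are those without it by construction. The replicate 1 and replicate 2 pairs differed by 0.0106 and 0.0189, -0.0265 and 0.00360, 0.0567 and -0.0393, and 0.0287 and -0.00703.

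Median PSI of introns up to 150 nt moved to 0.322 with at least 1 count in every library, 0.247 with at least 20, 0.496 as the plain share and 0.262 with the full skipping length (0.279 to 0.313 over left-out libraries). For introns of over 150 to 500 nt it moved to 0.308 with at least 1 count, 0.690 as the plain share, 0.289 without introns that hold another event's exon and 0.443 with the full skipping length (0.317 to 0.326). For introns over 500 nt it moved to 0.469 with at least 20 counts, 0.923 as the plain share, 0.364 without introns that hold another event's exon and 0.537 with the full skipping length (0.423 to 0.447). The cause was not tested. For single introns, libraries were left out only for those with the largest rises, the largest falls and the smallest p-values. Their groups do not overlap, so leaving out a library cannot turn their sign. It moved the difference toward 0 by over 1.5 times in SNHG4 (0.193 to 0.0423, without RBFOXi replicate 2), NFATC4, 1083 nt (-0.228 to -0.129, without RBFOXi replicate 2), FNBP1L (0.181 to 0.0966, without RBFOXi replicate 1), STIL (0.375 to 0.2098, without SCRM replicate 1), CDK16 (-0.159 to -0.0970, without SCRM replicate 2), PLAGL1 (-0.494 to -0.117) and IFT80 (-0.266 to -0.142), the last 2 without SCRM replicate 1.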
